A study of Mus musculus with 2 samples.

Results

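The acute phase response is the change in plasma protein output that the liver makes when cytokines reach it. Interleukin-6 acts through the transcription factor STAT3 and interleukin-1 and tumour necrosis factor act through NF-kB, and both routes raise secreted proteins such as serum amyloid A, haptoglobin and lipocalin 2 in hepatocytes. NF-kB also turns on its own inhibitors, among them the genes Nfkbia and Tnfaip3, and several chemokines. The 36 genes described here are a list of these secreted proteins, cytokines, receptors and signalling genes chosen by symbol. Of the 36, 35 were in the deposited table of 15644 named genes, each with 1 probe set, and Nfkb1 was not analysed here.

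One culture group received 10 µmol/l pregnenolone 16α-carbonitrile (PCN), a steroid drug and the usual rodent agonist of the pregnane X receptor (PXR), a nuclear receptor of drug metabolism. The other received the solvent dimethyl sulfoxide (DMSO). Both were primary hepatocytes, which are liver cells taken from the organ and kept in culture, from a male C57BL/6 mouse aged 9 weeks, with 24 h of culture before 12 h of treatment. RNA pooled from 3 samples went onto 1 Affymetrix array per group, so there were no replicates, no p-value was computed, and every difference below describes these 2 arrays. The labels name a mouse in the singular, and a pool on 1 array shows no spread between mice or between cultures.

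Levels below are linear GCRMA intensities, and each difference is log2 of PCN minus log2 of DMSO. A gene counted as measured when its intensity reached 32 (5 on the log2 scale) in at least 1 array, which 6449 named genes did. The bacterial and phage control probe sets, added from outside, give the only measure of array-to-array spread. Over 40 of them the SD of the log2 difference was 0.10, and the extremes were -0.33 and 0.16. The known PXR targets Cyp3a11, Cyp3a25, Gstm3, Ces2a, Cyp2c29, Abcb1a, Cyp2b10 and Alas1 were all higher in the PCN array, with Cyp3a11 at 15919 in PCN-treated cells and 8519 in DMSO-treated cells. Abcb1a and Cyp2b10 were under 32 with DMSO, at 17.5 and 25.9, so their log2 differences of 0.47 and 0.15 are bounds. Of all measured genes, 23.8% were as far or farther up than this bound for Cyp2b10. Of 12 hepatocyte markers, 10 were in the table and 9 were measured, 4 higher and 5 lower, with Alb at 21383 in PCN-treated and 21685 in DMSO-treated cells. The largest differences among these markers were 0.45 for Fabp1, 0.32 for Cyp2e1 and -0.21 for Hnf4a. Tat, a liver aminotransferase, was under the floor in both arrays, at 14.9 with PCN and 23.9 with DMSO.

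Of the 36 genes, 29 were measured and 6 were under the floor in both arrays. With PCN, 9 of the 29 were higher and 20 lower, beside 57.6% higher and 42.4% lower among all measured genes. The median log2 difference was -0.06 over the 29 genes and 0.03 over all measured genes. A log2 difference of 0.32 or more in size was seen in 8 of the 29, beside 11.4% of all measured genes. At 1.5-fold or more there were 2 (1.94% of all genes), 1 higher (0.636%) and 1 lower (1.3%). At 2-fold there was 1 (0.326%), which was lower (0.233%), and none was higher (0.093%). Of 14 secreted acute phase proteins, 13 were lower in the PCN array, 4 of them by less than the control SD of 0.10. The other 15 measured genes had 8 higher and 7 lower, with a median of 0.01. Cytokine genes (3 of 5) and receptors (2 of 3) were mostly lower too. The NF-kB genes (3 of 4) and the STAT3 axis and adhesion genes (2 of 3) were mostly higher. Outside the list, 8 of 9 measured genes of proteins that fall in an acute phase response were also lower. Of these 9, however, 7 differed by no more than the control SD, and their median was -0.03. With single arrays the contrast between roles was not tested. These are bulk RNA values, so fewer cells of a type and less RNA per cell cannot be told apart.

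**Figure D1:**
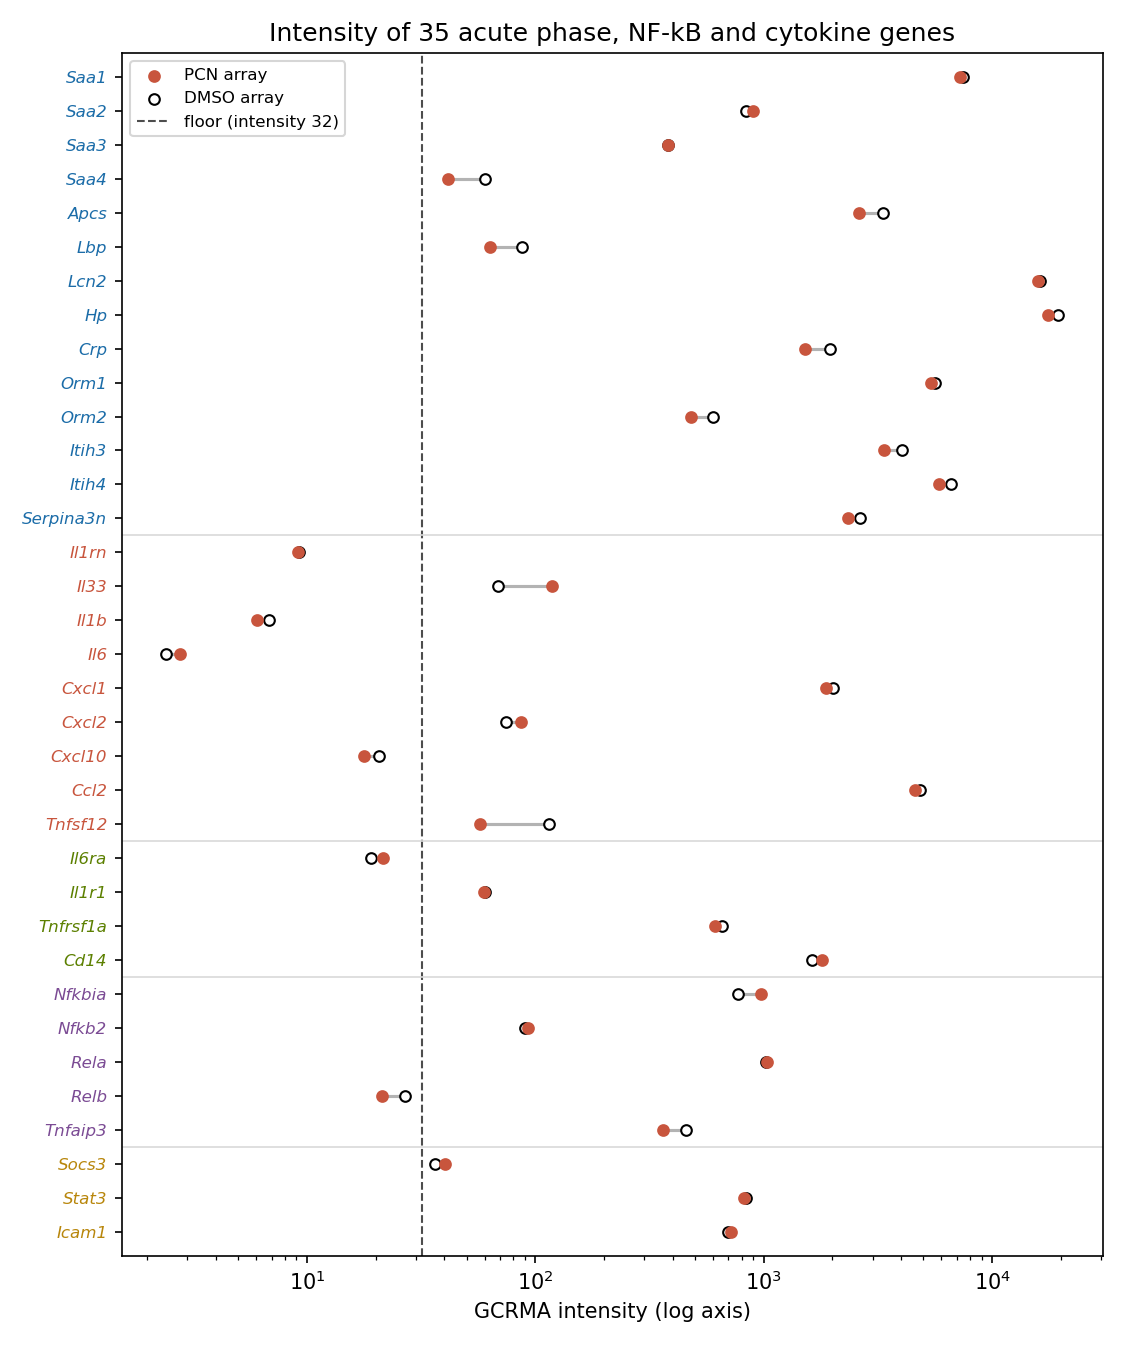
GCRMA intensity (log axis) of the 35 genes in the table, by role, with the PCN array as filled points and the DMSO array as open points; the dashed line is the floor of 32. All 14 secreted acute phase proteins lie right of the floor, and 6 genes, among them Il6 and Il1b, lie left of it in both arrays.

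All 14 secreted acute phase proteins were measured, with intensities from 41.3 to 17551 in the PCN array and from 60.1 to 19421 in the DMSO array. Probe sets differ in how strongly they bind, so these levels are given gene by gene and not ranked against each other. The class median was -0.18. No member reached 1.5-fold. Lower by 0.32 or more on the log2 scale were 4 of the 14, Saa4, Lbp, Crp and Apcs, and none was higher by that much, beside 6.17% lower and 5.27% higher of all measured genes. Summed over the 14 genes, intensity was 63618 with PCN and 69276 with DMSO.

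Lbp, whose protein binds bacterial lipopolysaccharide and hands it to CD14, had an intensity of 63.1 in PCN-treated cells and 87.6 in DMSO-treated cells, 1.39-fold lower with PCN. Of all measured genes, 2.39% were as far or farther down. Its partner Cd14, the lipopolysaccharide co-receptor, was slightly higher, at 1802 with PCN and 1619 with DMSO, a log2 difference of 0.15. As many as 22.3% of all measured genes were at least as far up.

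The pentraxins Crp and Apcs encode C-reactive protein and serum amyloid P, pattern-recognition proteins of plasma, of which serum amyloid P is the main acute phase pentraxin in the mouse. Crp was at 1522 in the PCN array and 1945 in the DMSO array, a log2 difference of -0.35. Apcs was at 2612 in the PCN array and 3325 in the DMSO array, also a difference of -0.35. Both thus lay more than 3 SDs of the control probe sets below 0 (3.44 for Crp and 3.38 for Apcs). That SD holds no spread between cultures, and the lowest control probe set was itself at -0.33. Of all measured genes, 5.07% were at least as far down as Crp and 5.23% at least as far down as Apcs. In the RefSeq gene table these genes are next to each other on chromosome 1, with no protein-coding gene between them.

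Orm1 and Orm2 encode orosomucoids, plasma glycoproteins that bind basic drugs. Orm2 was at 482 with PCN and 599 with DMSO, a log2 difference of -0.31. Orm1 was at 5378 with PCN and 5612 with DMSO, a difference of -0.06 that is smaller than the control SD. The transcripts of this pair are much alike, and how far either probe set reads the other was not tested.

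Itih3 and Itih4 encode heavy chains of the inter-alpha-trypsin inhibitor family, which stabilise hyaluronan-rich matrix. Itih3 was at 3375 in PCN-treated and 4023 in DMSO-treated cells, a log2 difference of -0.25. Itih4, its neighbour on chromosome 14, was at 5838 with PCN and 6642 with DMSO, a difference of -0.19. Their relatives outside the list were closer to 0, with Itih1 at -0.07, Itih2 at 0.05 and Itih5 at 0.10, named after their values were seen.

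The protease inhibitor gene Serpina3n was at 2338 with PCN and 2634 with DMSO, a log2 difference of -0.17. Hp, which encodes the haemoglobin scavenger haptoglobin, was at 17551 with PCN and 19421 with DMSO, a difference of -0.15. Lcn2, whose protein withholds iron by binding bacterial siderophores, was at 15913 with PCN and 16260 with DMSO, a difference of -0.03. The brightest probe sets of the table reached 28380 with PCN and 28482 with DMSO, so Hp and Lcn2 lie near the top of the range, where array signal can be compressed.

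**Figure D2:**
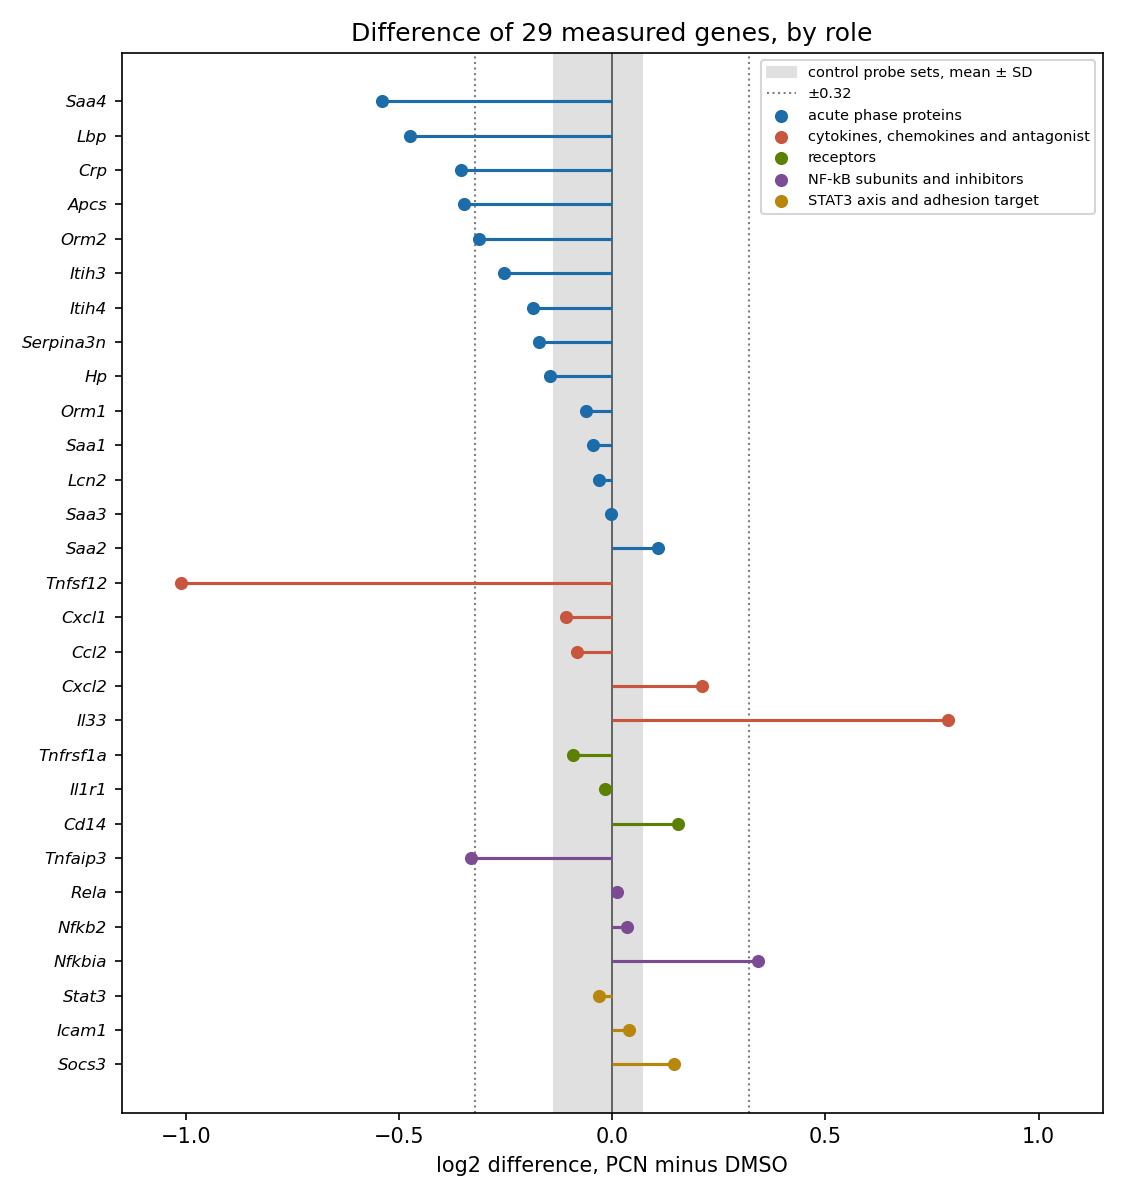
Log2 difference, PCN minus DMSO, of the 29 measured genes, grouped by role; the grey band is the mean ± SD of 40 control probe sets and the dotted lines mark 0.32 either way. The acute phase proteins lie from -0.54 for Saa4 to 0.11 for Saa2, and Tnfsf12 at -1.01 and Il33 at 0.79 lie farthest from 0.

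The serum amyloid A genes, which encode apolipoproteins of high-density lipoprotein, did not move as a block. Saa4, the constitutive member of the family, was at 41.3 in PCN-treated cells and 60.1 in DMSO-treated cells, 1.45-fold lower with PCN and not far above the floor. Saa1, an inducible liver form, was at 7229 with PCN and 7453 with DMSO, a log2 difference of -0.04. Saa2, its close relative, was at 897 with PCN and 833 with DMSO, a difference of 0.11 and the one positive value among the 14 acute phase proteins. Saa3, which is also made by macrophages and fat tissue, was at 381 with PCN and 382 with DMSO, a difference of -0.004. The last 3 of these values are within about 1 control SD of 0 (0.429, 1.04 and 0.037 SDs).

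The 4 genes stand side by side on chromosome 7 in the order Saa3, Saa4, Saa1 and Saa2. Their 250 bases before the transcription start, from RefSeq (build GRCm38.p6), are shown because they let the inducible pair be set against Saa4; capitals mark a loose NF-kB pattern, GGG and CC with any 5 bases between them, on either strand.
Saa1 (chr7:46742981-46743230, minus strand): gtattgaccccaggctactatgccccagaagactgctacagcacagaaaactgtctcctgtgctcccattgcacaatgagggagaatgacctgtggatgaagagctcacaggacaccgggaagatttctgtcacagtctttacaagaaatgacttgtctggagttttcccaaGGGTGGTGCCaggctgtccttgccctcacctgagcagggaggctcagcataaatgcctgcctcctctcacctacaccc
Saa2 (chr7:46751583-46751832, plus strand): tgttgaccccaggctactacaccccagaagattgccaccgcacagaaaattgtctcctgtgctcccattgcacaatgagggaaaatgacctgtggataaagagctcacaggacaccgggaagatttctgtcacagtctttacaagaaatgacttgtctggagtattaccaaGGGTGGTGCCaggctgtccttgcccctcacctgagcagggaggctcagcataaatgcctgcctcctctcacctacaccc
Saa3 (chr7:46715677-46715926, minus strand): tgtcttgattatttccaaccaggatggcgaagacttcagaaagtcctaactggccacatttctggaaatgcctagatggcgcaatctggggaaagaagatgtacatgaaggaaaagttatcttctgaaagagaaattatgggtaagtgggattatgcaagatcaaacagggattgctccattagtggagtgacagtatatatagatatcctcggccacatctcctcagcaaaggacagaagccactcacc
Saa4 (chr7:46732604-46732853, minus strand): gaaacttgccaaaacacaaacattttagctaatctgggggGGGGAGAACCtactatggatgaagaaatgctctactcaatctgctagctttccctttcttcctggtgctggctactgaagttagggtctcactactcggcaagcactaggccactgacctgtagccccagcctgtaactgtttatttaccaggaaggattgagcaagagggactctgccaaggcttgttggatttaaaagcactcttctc
The windows of Saa1 and Saa2 were identical at 238 of 249 aligned bases, with 2 further bases in gaps (94.8% over the whole alignment), and the other pairs at 46.8% to 52.4%. Saa1 and Saa2 both hold GGGTGGTGCC at about the same distance from the start, Saa4 holds another match farther away and Saa3 holds none. The Saa1 and Saa2 transcripts are also near copies of each other, so their probe sets may each read both.

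Of the 9 cytokine, chemokine and antagonist genes, 5 were measured, 2 higher and 3 lower. Tnfsf12, which encodes the TNF family ligand TWEAK, was at 57.0 in PCN-treated cells and 115 in DMSO-treated cells, 2.02-fold lower with PCN. Of all measured genes, 0.233% were as far or farther down. The gene of its receptor Fn14, Tnfrsf12a, was at 5098 with PCN and 5268 with DMSO, a log2 difference of -0.05. Ligand and receptor thus differed by -0.96 in their log2 differences.

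Il33, an alarmin cytokine of the IL-1 family that is held in the nucleus, was at 119 in the PCN array and 68.8 in the DMSO array, 1.73-fold higher with PCN. Of all measured genes, 0.171% were as far or farther up. Il18, another IL-1 family cytokine, was at 123 with PCN and 92.9 with DMSO, 1.33-fold higher. The gene of the IL-33 receptor, Il1rl1, was not analysed here. In liver, Il33 is also made by endothelial and stellate cells. Endothelial markers were measured for 3 of 11 genes, with 2 above and 1 below their DMSO value, and the 11 summed to 215 with PCN and 197 with DMSO. Lyve1 was at 39.8 with PCN and, under the floor, at 30.4 with DMSO, and Eng was at 37.1 with PCN and, also under the floor, at 30.7 with DMSO, both higher with PCN as Il33 was. Stab2 was at 37.0 with PCN and 42.1 with DMSO. Pecam1 was under the floor in both arrays, at 29.9 with PCN and 26.1 with DMSO. So were Kdr, at 18.0 with PCN and 14.4 with DMSO, and Stab1, at 16.0 with PCN and 15.5 with DMSO. Oit3, also under it, was at 12.6 with PCN and 14.6 with DMSO. The faintest endothelial markers, Vwf and Clec4g, were at most 5.41 in either array. For stellate cells and fibroblasts, 2 of 11 markers were measured, both lower with PCN, and the 11 summed to 410 with PCN and 456 with DMSO, of which Dcn made 313 with PCN and 351 with DMSO. The other measured one, Acta2, was at 30.6 with PCN, under the floor, and 36.5 with DMSO. The defining stellate marker Lrat was at 2.96 with PCN and 3.41 with DMSO. The part of these cells in the Il33 value was not tested.

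The chemokine genes differed little. Cxcl1, a neutrophil attractant, was at 1871 with PCN and 2016 with DMSO, a log2 difference of -0.11. Cxcl2, its neighbour on chromosome 5 and a ligand of the same receptor, was at 86.4 with PCN and 74.6 with DMSO, a difference of 0.21. Ccl2, a monocyte attractant, was at 4582 with PCN and 4853 with DMSO, a difference of -0.08. Its level was far above the floor in both arrays, as was that of Cxcl1.

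The classical inducing cytokines were not measured. Il6 was at 2.79 with PCN and 2.43 with DMSO, and Il1b was at 6.07 with PCN and 6.79 with DMSO. Il1rn, the IL-1 receptor antagonist, was at 9.11 with PCN and 9.26 with DMSO, and Cxcl10, an interferon-induced chemokine, was at 17.8 with PCN and 20.8 with DMSO. Tnf, from the list of TNF ligands and named after its value was seen, was at 9.81 with PCN and 7.30 with DMSO. The macrophages that make such cytokines in liver were represented by 18 Kupffer cell and leukocyte markers in the table, of which 3 were measured, 1 higher and 2 lower. These 18 summed to 1830 with PCN and 1878 with DMSO, of which Cd68, a lysosomal protein, made 1626 with PCN and 1690 with DMSO. The defining markers Adgre1 and Clec4f were under the floor, with Adgre1 at 7.24 with PCN and 6.19 with DMSO, and Clec4f at 9.03 with PCN and 10.9 with DMSO. C1qb was at 38.1 with PCN and, under the floor, at 26.7 with DMSO, while C1qa was at 30.0 with PCN, under the floor, and 34.9 with DMSO.

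Among the receptors, 3 of 4 were measured. Tnfrsf1a, the main receptor for tumour necrosis factor, was at 614 with PCN and 655 with DMSO, a log2 difference of -0.09. Il1r1, the signalling receptor for IL-1, was at 59.5 with PCN and 60.2 with DMSO, a difference of -0.02. Il6ra, the ligand-binding chain of the IL-6 receptor, was under the floor at 21.4 with PCN and 19.1 with DMSO. Its signalling partner Il6st was at 272 with PCN and 274 with DMSO, a difference of -0.01, and the IL-1 receptor partner Il1rap was under the floor at 26.7 with PCN and 25.4 with DMSO. Apart from Cd14 at 0.15, no measured receptor of the list differed by more than the control SD of 0.10.

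Of 6 NF-kB subunit and inhibitor genes, 4 were measured, and the pair of feedback inhibitors lay on opposite sides of 0. Nfkbia, which encodes the inhibitor IkBα that holds NF-kB in the cytoplasm, was at 975 in PCN-treated cells and 769 in DMSO-treated cells, 1.27-fold higher with PCN. Tnfaip3, which encodes the ubiquitin-editing enzyme A20 that shuts off signalling upstream, was at 362 in PCN-treated cells and 455 in DMSO-treated cells, 1.26-fold lower with PCN. Their log2 differences of 0.34 and -0.33 were 0.67 apart, and each was over 3 control SDs from 0 (3.33 for Nfkbia and 3.22 for Tnfaip3). The control SD holds no spread between cultures, and the lowest control probe set was itself at -0.33. Of all measured genes, 4.37% were at least as far up as Nfkbia and 5.66% at least as far down as Tnfaip3. The subunit genes were nearly level. Rela, the transactivating p65 subunit, was at 1030 with PCN and 1022 with DMSO, a difference of 0.01, and Nfkb2, the precursor of p52, was at 92.7 with PCN and 90.4 with DMSO, a difference of 0.04. Relb, the partner of p52, was under the floor at 21.3 with PCN and 26.9 with DMSO.

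Stat3, the transcription factor of IL-6 signalling, was at 821 with PCN and 838 with DMSO, a log2 difference of -0.03. Socs3, its feedback inhibitor, was at 40.1 with PCN and 36.2 with DMSO, close to the floor, with a difference of 0.15. Icam1, an adhesion molecule induced through NF-kB, was at 717 with PCN and 697 with DMSO, a difference of 0.04. None of these 3 reached 0.32.

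**Figure D3:**
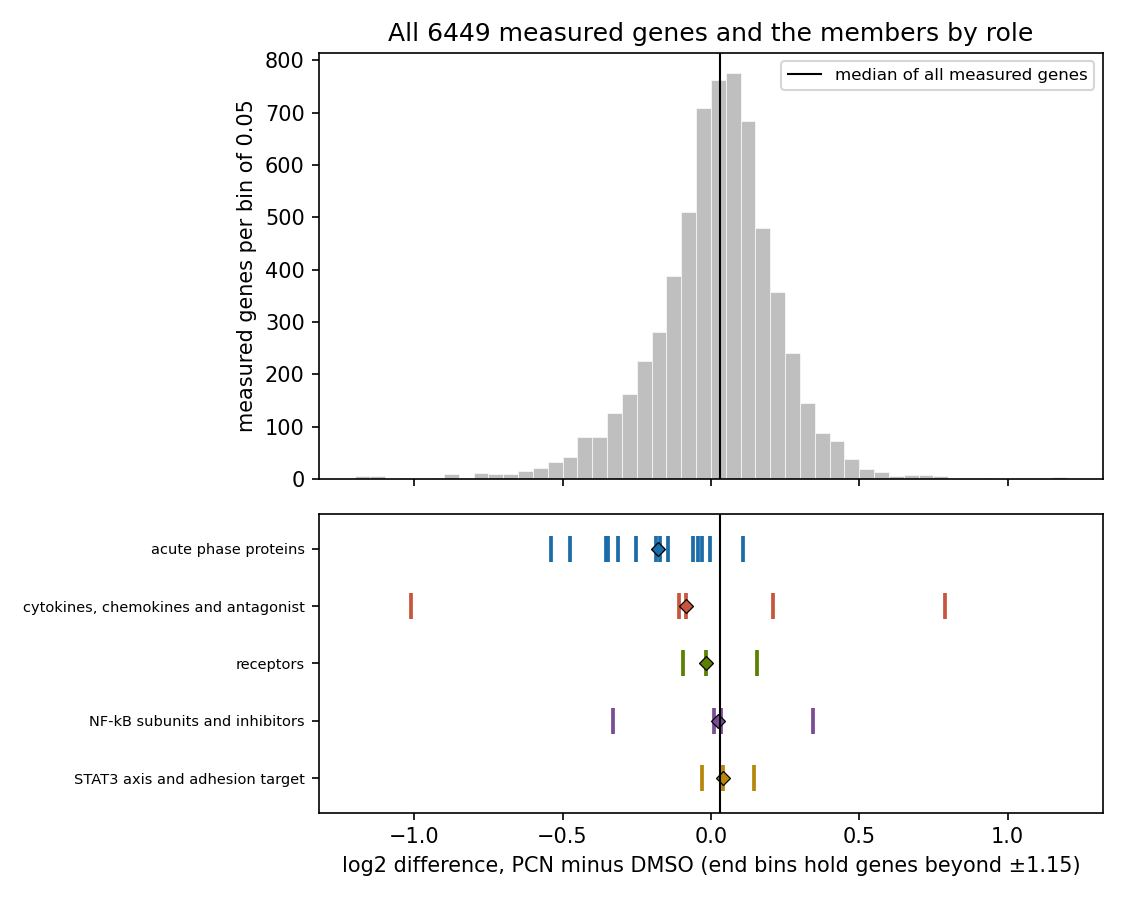
The upper panel counts all 6449 measured genes by log2 difference, PCN minus DMSO, in bins of 0.05, with the median of 0.03 as a line; the lower panel marks each measured gene of the 5 roles, with its role's median as a diamond. The median of the acute phase proteins is -0.18, and the medians of the other roles lie between -0.08 and 0.04.

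The upstream sequences of the members were searched for fixed letter patterns chosen for NF-kB, C/EBP, STAT and PXR. RefSeq promoter windows of 250 bases before the start were at hand for 28 of the 36 genes; Ccl2, Cd14, Hp, Lbp, Nfkb1, Orm1, Relb and Tnfsf12 had none. Both strands were read, and a gene counted once if any of its windows held a match. The loose NF-kB pattern, GGG and CC with any 5 bases between them, was in 21 of the 28 genes (75%), beside 48.7% of the 27025 genes in the table. A narrower set held 5 fixed forms of the kappa B consensus, each of which is also a match to the loose pattern. A form of this set was found in 6 of the 28 genes (21.4%), beside 0.474% of all genes. The list was chosen by known role and holds genes that NF-kB turns on, so the higher share is not a test. The STAT pattern TTCNNNGAA was in 6 of the 28 (21.4%), Apcs, Icam1, Itih4, Nfkb2, Socs3 and Tnfrsf1a, beside 8.13%. The pattern TTGCNNCAA, chosen for C/EBP, was in 1 of the 28 (3.57%), Cxcl1, beside 1.98%. With NN between TTGC and CAA it misses sites that have 1 base there, such as TTGCACAA in the Saa1 and Saa2 windows. C/EBP sites were thus not counted. One exact spelling of a PXR direct repeat, AGTTCA given again after any 4 bases, was in none of the 28 and in 3 of all 27025 genes. It is so rare that its absence from the 28 says nothing about PXR sites. Other spacings and spellings were not searched. A match is a description of letters and not a shown binding site.

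The stretches around the narrow NF-kB letters are shown for the 6 genes because they set matches of this set beside each gene's difference; capitals mark the match, and coordinates are GRCm38.p6. For Nfkb2, which has several starts, a further match before another start is not shown.
Cxcl1 (chr5:90891154-90891204, plus strand): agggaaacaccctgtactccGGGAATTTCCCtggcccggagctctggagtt
Cxcl2 (chr5:90903782-90903832, plus strand): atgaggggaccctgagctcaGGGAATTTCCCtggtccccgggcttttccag
Cxcl10 (chr5:92349019-92349068, minus strand): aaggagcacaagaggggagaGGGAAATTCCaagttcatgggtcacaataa
Nfkb2 (chr19:46304678-46304727, plus strand): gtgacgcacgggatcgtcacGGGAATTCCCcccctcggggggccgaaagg
Nfkbia (chr12:55492648-55492696, minus strand): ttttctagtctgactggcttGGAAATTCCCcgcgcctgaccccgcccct
Tnfaip3 (chr10:19015411-19015442, minus strand): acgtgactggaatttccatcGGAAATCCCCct
Cxcl1 and Cxcl2 carry the same 11 bases, in which a match on either strand overlaps, and had log2 differences of -0.11 and 0.21. Nfkbia and Tnfaip3 carry their match on the opposite strand, close to the start, and had differences of 0.34 and -0.33. Nfkb2 stood at 0.04, and Cxcl10 was under the floor. The 5 measured genes with a match thus ran from -0.33 to 0.34, with 3 higher and 2 lower.

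Further genes of the same pathways, listed by function, had medians nearer to that of all measured genes than the acute phase proteins had. Of 25 other acute phase and inhibitor genes, 17 were measured, 6 higher and 11 lower, with a median of -0.02. Past 0.32 there were 2, Steap4 and Lrg1, both lower (11.8%, beside 11.4% of all measured genes in either direction). Steap4, an iron and copper reductase, was at 287 with PCN and 472 with DMSO, 1.64-fold lower, and Lrg1, a secreted leucine-rich glycoprotein, was at 5248 with PCN and 6570 with DMSO, a log2 difference of -0.32. Hamp, the gene of the iron hormone hepcidin, was at 112 with PCN and 140.0 with DMSO, just short of that size. Of 11 genes of plasma proteins and enzymes that fall in an acute phase response, 9 were measured, 1 higher and 8 lower, all between -0.15 for Ahsg and 0.16 for Igfbp2, with a median of -0.03. Fetub, a relative of Ahsg, stood at -0.06.

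**Figure D4:**
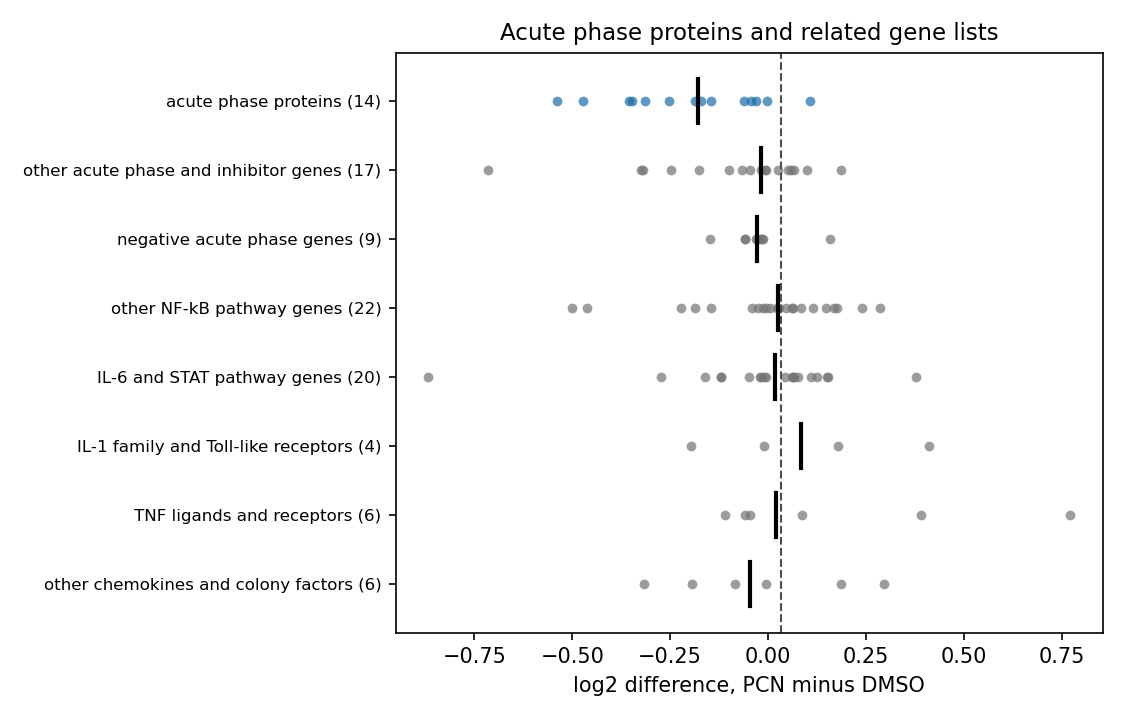
Log2 difference, PCN minus DMSO, of the measured genes (points, number in parentheses) of the acute phase proteins and of 7 further lists, with each list's median as a bar and the median of all 6449 measured genes as a dashed line; a gene under the floor in 1 array is drawn at its bound. The acute phase protein median is -0.18, and the other medians lie between -0.05 and 0.08.

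Of 40 other NF-kB pathway genes, 22 were measured, 13 higher and 9 lower, with a median of 0.03. Past 0.32 there were 2 (9.09%, beside 11.4% of all measured genes in either direction), both lower. Birc2, the ubiquitin ligase cIAP1 that acts at the TNF receptor, was at 253 with PCN and 358 with DMSO, 1.42-fold lower. Ikbke, a kinase related to the IkB kinases, was at 346 with PCN and 477 with DMSO, 1.38-fold lower. Tnip1, which binds A20, was at 525 with PCN and 430.4 with DMSO, 1.22-fold higher, while Ikbkb, the main IkB kinase, was at 34.7 with PCN and 35.4 with DMSO.

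Of 34 further IL-6 and STAT pathway genes, 20 were measured, 10 higher and 10 lower, with a median of 0.02. Cebpa, a transcription factor of differentiated hepatocytes that also acts on acute phase genes, was at 219 with PCN and 400.5 with DMSO, 1.82-fold lower. Its relatives with a role in the acute phase response lay near 0, Cebpb at 905 with PCN and 830 with DMSO (log2 difference 0.13) and Cebpd at 207 with PCN and 225 with DMSO (-0.12). Socs5, a cytokine signalling suppressor, was 1.30-fold higher, at 119 with PCN and 91.4 with DMSO. Pim1, a kinase gene that STAT3 induces, was under the floor with PCN at 28.9, against 38.7 with DMSO, and was at least 1.21-fold lower.

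Of 23 further IL-1 family and Toll-like receptor genes, 4 were measured, 2 higher and 2 lower. Besides Il18, these included Il18bp, its secreted antagonist, at 45.7 with PCN and 52.5 with DMSO, and Ly96, the lipopolysaccharide-binding partner of TLR4, at 323 with PCN and 285 with DMSO. Of 31 further TNF ligands and receptors, 6 were measured, 3 higher and 3 lower. Tnfrsf22, a mouse decoy receptor for TRAIL, was at 166 with PCN and 97.3 with DMSO, 1.71-fold higher. Its paralog Tnfrsf23 was at 856 with PCN and 654 with DMSO, 1.31-fold higher, and the death receptor gene Fas was at 45.8 with PCN and 49.4 with DMSO. Among 31 other chemokine, colony factor and adhesion genes, 6 were measured, 2 higher and 4 lower. Vcam1, an adhesion molecule, was at 96.4 with PCN and 78.6 with DMSO. Cxcl13 was at 29.5 with PCN and 39.9 with DMSO, and Ccl25 was at 20.1 with PCN and 36.6 with DMSO. Both were under the floor with PCN, so their log2 differences are bounds, -0.32 for Cxcl13 and -0.19 for Ccl25, and may be larger in size.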

How the data were processed

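Per the labels' protocols, the biotin-labelled cRNA of each array came from 5 µg of RNA, a pool of 3 samples. The authors deposited GCRMA intensities (GCRMA 2.2.0, per the submitters' processing notes), which are linear since they span 1.13 to 28482. Which probe set definition and genome build lie behind them is not given in the sources used here. Probe sets were named through the platform annotation. All 35 member genes found there had the same symbol, by Entrez number, in the RefSeq table of GRCm38.p6.

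Log2 values and differences (PCN minus DMSO) were computed in Python 3.11.15 (numpy 2.4.6, pandas 2.3.3). A gene under 5 on the log2 scale in both arrays was not measured. Where only 1 array was under it, that value was set to 5 and the fold is a bound. The floor is a choice, since there are no detection calls. The 2 deposited arrays did not have the same distribution (median intensity 14.1 with PCN and 14.4 with DMSO). With 1 array per group there was no test, the number of arrays limits the precision, and batch and treatment cannot be told apart. The calculation was tested on simulated data with planted shifts larger than the difference of any member. That test does not bear on differences as small as those reported here. Alternatives were a floor of 4 or 6, no floor, low values as deposited, quantile normalization, median centring and subtraction of a loess curve (fraction 0.3, statsmodels 0.14.6). Upstream windows were aligned with Biopython 1.88, a step chosen after the differences were seen, as were the pairs of genes set against each other.

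The member genes, gene lists, floor and sizes were chosen with earlier results of these data known. All members in the table are given, with the 3 largest differences of each further list, partner genes fixed by name and the PXR target list. Any other gene was named after its value was seen. This holds for Alb, Tat, Adgre1, Clec4f, Lrat and the endothelial markers other than Lyve1, Eng and Stab2.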

Additional observations from a re-analysis of the deposited data

How the results depend on the processing

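Of 84 counts and medians recomputed under 7 planned settings, 83 stayed within 1.5 times (counts) or the control probe set SD (medians) of the reported value. The exception was the count of genes at least 2-fold apart, which was 0 with a floor of 6 in place of 1, since the PCN value of Tnfsf12 was then raised to the floor and its log2 difference became a bound of -0.85. The acute phase proteins were lower in 13 of 14 under every setting except the floor of 6, which left 12 of 13, and their median ran from -0.21 with median centring to -0.17 with a floor of 6. Medians near 0 changed sign without passing that SD: receptors stood at 0.07 with a floor of 4, and the NF-kB genes at -0.01 with median centring. The share of all measured genes lower with PCN, 42.4% in the main setting, also moved with the scaling. It was 46.0% with quantile normalization, 49.4% with the loess curve subtracted and 50.0% with median centring. Members lower with PCN under these 3 settings numbered 21, 22 and 21. Among single genes, Rela (lowest value -0.02) and Nfkb2 (lowest value -0.002) changed sign. Without a floor, 33 of all named genes were at least 2-fold apart, 260 at least 1.5-fold and 1751 at least 0.32 on the log2 scale, in place of 21, 125 and 738. Leaving out a replicate was not possible with single arrays. No paired analysis was possible because both groups consist of 1 pooled array. Low signal limits the genes near the floor, among them Tnfsf12 (57.0 with PCN), the one gene at 2-fold, and Il33 (68.8 with DMSO), Saa4, Lbp, Il1r1 and Socs3, as well as the genes under it.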
